A study of Mus musculus with 12 samples.

Results

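Treatment of rTg4510 mice with 3TC was examined in hippocampal RNA by setting 4 libraries of treated mice (rTg4510+3TC) against 4 libraries of untreated rTg4510 mice. The libraries were chosen by their labels alone and are 8 of the 12 in the series; the other 4, from littermate controls, are not in the contrast. All genes of the deposited count table entered, 24384 in number, of which 16048 passed the filter on low counts and were tested. The rTg4510 mouse carries a mutant human tau transgene that is switched on in forebrain neurons by an activator under the Camk2a promoter, and both groups carry it. 3TC (lamivudine) was given to 1 group only. The labels name 2 females and 2 males in each group, called F2, F3, M2 and M3 in rTg4510+3TC and F2, F3, M1 and M3 in rTg4510. Neither the animals' age nor the dose, route and duration of 3TC is stated in the sources used here. Nothing in them ties a library to its own mouse; the p-values below thus reflect variation among these libraries, part of which may be technical.

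Lamivudine is a cytidine analogue that enters cells through nucleoside and organic cation transporters and is phosphorylated stepwise to a triphosphate. Reverse transcriptases insert the triphosphate and cannot extend the chain, which is the basis of its use against retroviruses, and the enzymes of endogenous retroelements are also sensitive. DNA copies and double-stranded RNA of retroelements can be detected by sensors such as cGAS, RIG-I and MDA5. These signal through STING or MAVS to type I interferon, which acts through STAT and IRF factors on response elements in the promoters of interferon-stimulated genes. In the hippocampus such genes are expressed mainly by microglia, astrocytes and vessels, and in tauopathy models they accompany reactive glia. The series title asks how 3TC alters hippocampal signatures of inflammation in this model.

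Sequencing gave library totals of 27351630 to 35357415 counts with 3TC and 29732904 to 36112922 without, and 3 counts correspond to 0.0854 to 0.11 CPM (counts relative to the library total after TMM scaling) depending on the library. Defining markers of the hippocampus were present in all 8: Prox1 of dentate granule neurons at 25.8 to 52.2 CPM with 3TC and 9.51 to 50.8 CPM without, and Wfs1 of CA1 pyramidal neurons at 73.8 to 189 and 168 to 230 CPM. Sex-linked genes matched the labels in all 8 libraries. In all, 3 libraries stood apart in markers of neighbouring tissue. In rTg4510+3TC F2 the thalamic transcription factor Tcf7l2 stood at 161 CPM, against 9.63 to 14.1 CPM in the other 7 libraries. In rTg4510 F3 the myelin gene Mbp stood at 1496 CPM, against 2977 to 3927 CPM in the others, and the mean scores of the striatal and neocortical marker lists, though not each marker, were the highest of the 8. In rTg4510 M1 the choroid plexus transcript Ttr stood at 3913 CPM, against 16.3 to 105 CPM in the others. These libraries are kept in the values below, and the main values that rest on them are also given without them.

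The first question was which hippocampal transcripts differ with the drug in mice that carry the transgene. No gene passed an adjusted p under 0.05 (edgeR quasi-likelihood test, 0 of 16048, 0%), and the smallest adjusted p was 0.995. At an unadjusted p under 0.05 there were 438 genes (2.73%), 204 higher with 3TC (1.27%) and 234 lower (1.46%), where 802 would be expected by chance. DESeq2 called 1 gene, Ptprv, and limma-voom called 0, with 458 at an unadjusted p under 0.05. The 4 values of each group did not overlap for 396 genes (2.47%), 202 with all 3TC libraries above (1.26%) and 194 with all of them below (1.21%).

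The intervals show which sizes of difference the 8 libraries could bound. For the 14371 genes with a mean of at least 1 CPM, the median 95% interval of the log2 fold change reached 0.33 on either side. The interval lay within 1 log2 unit of 0 for 12077 of these genes and within 0.5 for 8041. Log2 fold changes had a median of -0.00057, and 7998 genes (49.8%) were positive. Genes at low levels had the widest scatter, as the plot of fold change against mean level shows.

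**Figure D1:**
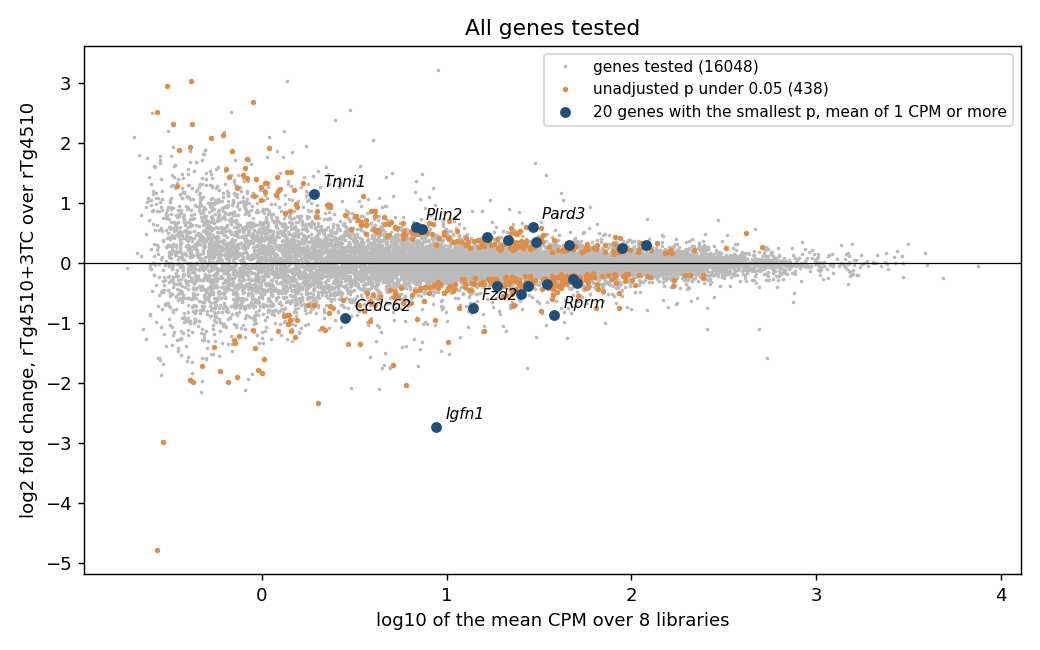
Log2 fold change of rTg4510+3TC over rTg4510 (vertical axis) against the log10 mean CPM of the 8 libraries (horizontal axis) for the 16048 genes tested; orange points are the 438 genes with an unadjusted p under 0.05 and blue points the 20 described in the text. The cloud is centred on 0, and Igfn1 has the most negative value of the 20.

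Among genes with a mean of at least 1 CPM, the 10 with the smallest p in each direction are described first. None of the 20 passed (edgeR, adjusted p = 0.995 for each), so their values are a description of these libraries. In 18 of the 20 the groups did not overlap, which the choice by p favours; Banp and Igfn1 overlapped. Leaving out each library in turn turned the sign of none of the 20.

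The smallest p belonged to Pard3 (chr8:127063893-127612286, mm10), a scaffold of the polarity complex that sets up cell junctions and axon identity. Its levels were 41.8, 31.4, 36.0 and 32.0 CPM in rTg4510+3TC F2, F3, M2 and M3, against 22.7, 20.1, 26.1 and 24.0 CPM in rTg4510 F2, F3, M1 and M3. Every 3TC library was above every untreated one, and the log2 fold change was 0.61 ± 0.13 (SE; edgeR, adjusted p = 0.995). The log2 fold change of Pard3 was 0.45 without rTg4510 F3 and rTg4510+3TC F2.

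Sms, the spermine synthase, averaged 132 ± 6.02 CPM with 3TC and 107 ± 7.78 CPM without (SD, n = 4 each; log2 fold change 0.30 ± 0.08, SE). Adk, the adenosine kinase that clears adenosine and sets its extracellular level in brain, stood at 51.3, 49.1, 50.7 and 53.02 CPM with 3TC, against 41.7, 42.6, 37.8 and 43.3 CPM without. Its groups were separated by a gap wider than the range within the 3TC group, with a log2 fold change of 0.30 ± 0.08. Elovl5, an elongase of polyunsaturated fatty acids, averaged 96.7 ± 2.03 CPM with 3TC and 81.3 ± 4.25 CPM without (0.25 ± 0.07).

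Plin2 (chr4:86648386-86670060, mm10) encodes the coat protein of lipid droplets and is induced when cells store neutral lipid. It stood at 8.54, 8.20, 7.95 and 8.28 CPM with 3TC, against 4.47, 5.35, 6.53 and 5.52 CPM without. The 3TC libraries lay close together and above all the others, with a log2 fold change of 0.60 ± 0.16. The remaining genes higher with 3TC were Tnni1, Zfp747, Polr3gl, Mrpl34 and Fbxo7. Tnni1, the slow skeletal muscle troponin I, averaged 2.64 ± 0.22 CPM with 3TC and 1.20 ± 0.26 CPM without, and its log2 fold change of 1.14 ± 0.31 was the largest of the 10. The KRAB-type zinc finger gene Zfp747 had 0.57 ± 0.15, and Polr3gl, a subunit of RNA polymerase III, had 0.35 ± 0.10. Mrpl34, a mitochondrial ribosomal protein, had 0.43 ± 0.12. Fbxo7, an F-box protein whose human form is linked to parkinsonism and mitophagy, had 0.38 ± 0.11.

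Among the genes lower with 3TC, Fzd2 (chr11:102604396-102608058, mm10), a Wnt receptor, had the smallest p. Its levels were 13.3, 10.1, 8.44 and 9.81 CPM with 3TC, against 14.0, 17.96, 17.97 and 19.5 CPM without. The highest 3TC library, F2, was just below the lowest untreated one, F2, and the log2 fold change was -0.74 ± 0.17 (SE). Hdac7, a class IIa histone deacetylase, averaged 30.6 ± 1.94 CPM with 3TC and 38.9 ± 1.64 CPM without (-0.34 ± 0.08). Sema4f, a semaphorin of the axon guidance family, had -0.34 ± 0.08, and Abcb6, an ATP-binding cassette transporter of porphyrins, had -0.38 ± 0.10. Minpp1, a phosphatase of higher inositol phosphates, had -0.27 ± 0.07, and Stradb, a pseudokinase partner of LKB1, had -0.38 ± 0.11.

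Rprm (chr2:54084093-54085552, mm10), reprimo, is a p53-induced inhibitor of the cell cycle and in the cortex a marker of deep-layer neurons. It stood at 16.5, 30.6, 30.6 and 29.9 CPM with 3TC, against 56.3, 63.8, 45.9 and 32.8 CPM without. The groups did not overlap, and the gap between rTg4510+3TC F3 and rTg4510 M3 was small beside the spread of the untreated group. Its log2 fold change was -0.86 ± 0.26, and it lies beside the neocortical markers that were highest in rTg4510 F3 and the thalamic markers of rTg4510+3TC F2; their part in the result was not tested. Ccdc62, a coiled-coil protein first described as a coactivator of estrogen receptors, averaged 1.96 ± 0.45 CPM with 3TC and 3.70 ± 0.39 CPM without (-0.92 ± 0.27).

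Banp and Igfn1 were less regular. Banp, a nuclear matrix protein that binds CpG-rich promoters, stood at 14.3, 15.5, 30.6 and 24.6 CPM with 3TC, against 25.3, 25.0, 32.5 and 33.9 CPM without. Its 2 female 3TC libraries were the lowest of the 8, while 3TC M2 lay among the untreated values and 3TC M3 just below them; the log2 fold change was -0.51 ± 0.13. Igfn1 (chr1:135953578-136006342, mm10), an immunoglobulin-like and fibronectin-domain protein known from muscle, stood at 0.92, 4.80, 1.17 and 1.76 CPM with 3TC, against 4.17, 42.0, 12.3 and 3.34 CPM without. A log2 fold change of -2.73 ± 0.79 thus rested on wide values in the untreated group, and it was -1.71 without rTg4510 F3 and -0.59 without rTg4510 F3, rTg4510 M1 and rTg4510+3TC F2. Each of these values of Igfn1 failed the adjustment.

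**Figure D2:**
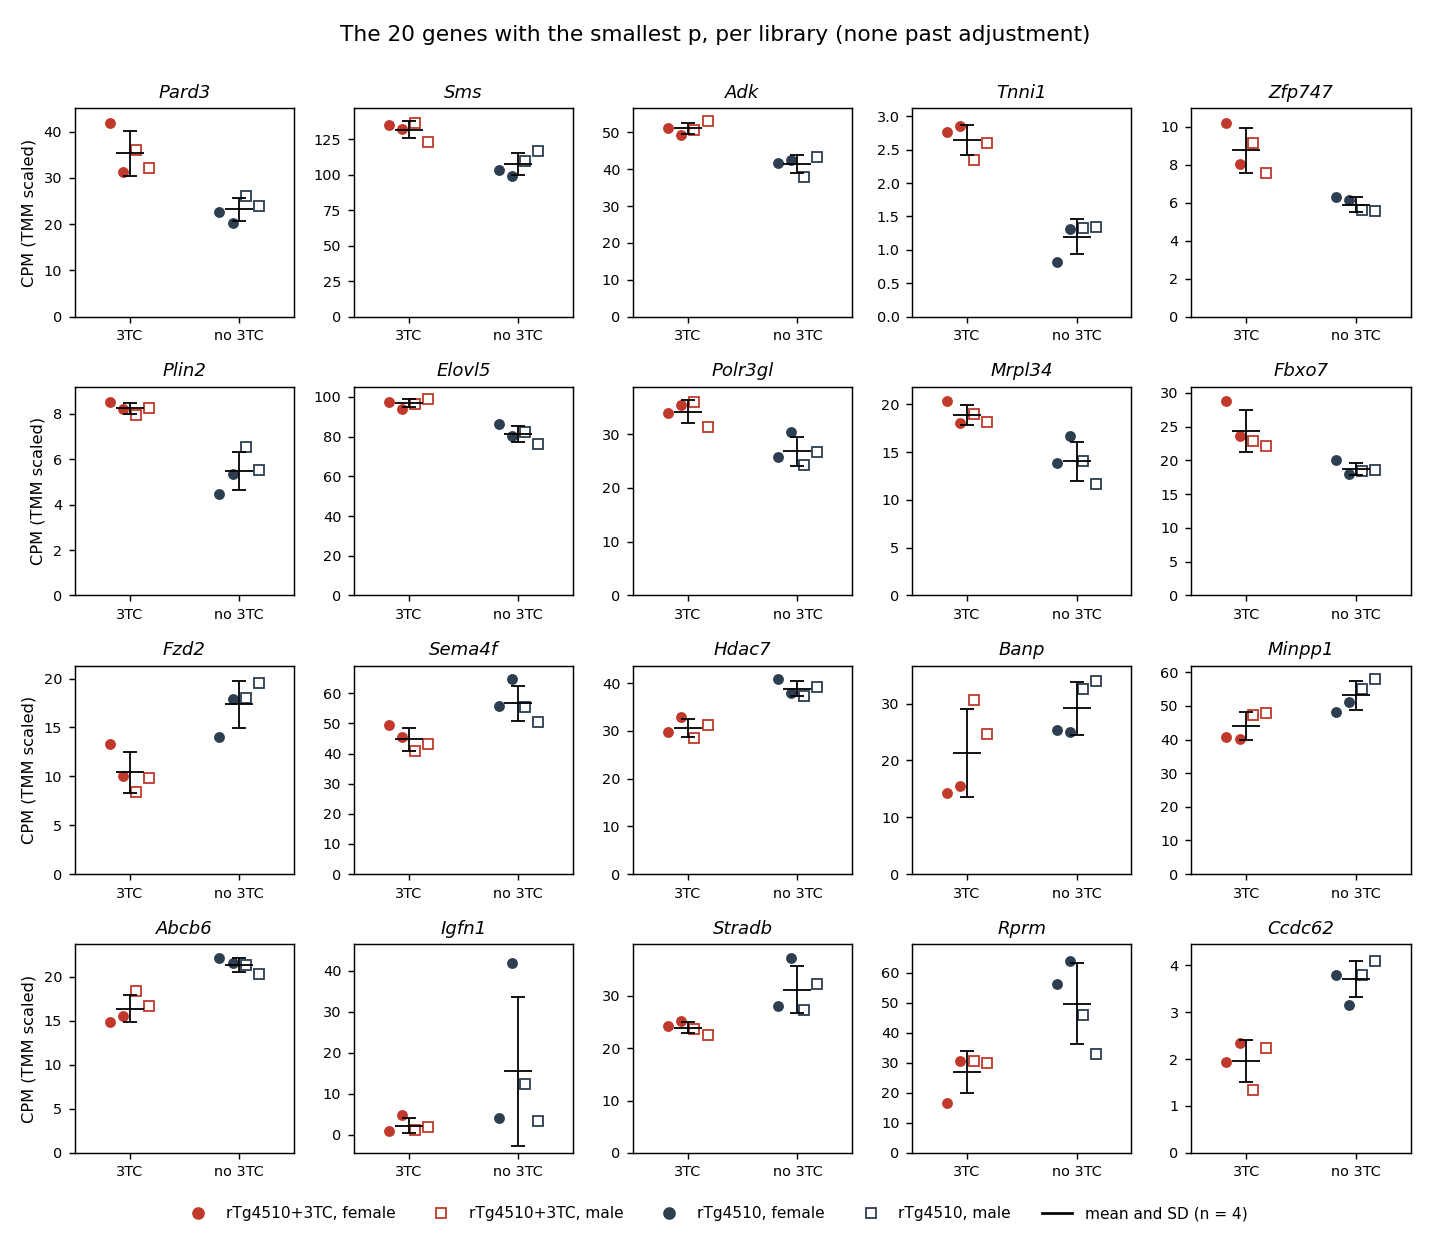
CPM (vertical axes, TMM scaled) of the 10 genes with the smallest p that were higher with 3TC (upper 2 rows) and the 10 that were lower (lower 2 rows), with the rTg4510+3TC libraries on the left of each panel and the rTg4510 libraries on the right. Points are libraries, circles female and squares male, and the bars are mean and SD (n = 4); the groups are separate in all panels but Banp and Igfn1, and the Igfn1 axis extends below 0 to hold its SD.

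Ptprv, a receptor-type phosphatase gene that is a pseudogene in humans, was the gene that DESeq2 called (log2 fold change -7.28, adjusted p = 0.0116). It had 0 counts in each of the 4 3TC libraries and 12, 65, 41 and 6 counts in rTg4510 F2, F3, M1 and M3, of 124 in all. Ptprv was below the count filter of the edgeR fit. It was among the 20734 genes that edgeR tested without a filter, where 0 were called. Against a floor of 3 counts over the 3TC group it was at least 40.6-fold lower with 3TC, and at least 26.4-fold lower without rTg4510 F3. A count of 0 allows up to 3 counts, counting error only.

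Type I interferon response genes stood mostly on the positive side. Among 41 members tested, log2 fold changes were positive for 33 (80.5%), against 49.8% of all genes, and negative for 8. Their median was 0.19, against -0.00057 over all genes tested. None passed over all genes and 0 had an unadjusted p under 0.05 in either direction, against 2.73% of all genes (edgeR). The test did not set differences of this size apart from the spread between libraries.

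Stat2 and Irf9, transcription factors of the pathway, had log2 fold changes of 0.07 and -0.21. Rtp4, an interferon-induced chaperone of receptors, stood at 2.38, 2.88, 1.39 and 3.33 CPM with 3TC, against 1.12, 1.31, 0.24 and 1.84 CPM without (1.15 ± 0.57). Only rTg4510+3TC M2 lay within the untreated range. Oas1a, a sensor of double-stranded RNA that activates RNase L, stood at 1.04, 0.77, 0.53 and 1.28 CPM with 3TC, against 0.24, 0.80, 0.41 and 0.19 CPM without (1.17 ± 0.60).

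Parp9, a partner of the ubiquitin ligase Dtx3l, was the list's 1 member without overlap, against 2.47% of all genes. It stood at 4.22, 4.48, 5.60 and 3.99 CPM with 3TC, against 3.73, 3.53, 3.69 and 2.65 CPM without (0.43 ± 0.22). Irf7, the factor that amplifies interferon production, had 0.58, Oasl2 0.52 and Mx2 1.02. The most negative member was Herc6, an interferon-induced ubiquitin ligase, at -0.48, where rTg4510 F3 stood at 21.7 CPM and the other 7 libraries at 5.33 to 8.71 CPM. Effector genes often used to read out the pathway were mixed: Usp18 had 0.47, Isg15 0.34, Ifitm3 0.28 and Ifit1 0.19, while Rsad2 and Bst2 had 0.02 each and Mx1 -0.10. Ifih1, which encodes the sensor MDA5, had -0.09.

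By library, the interferon score (mean log2 deviation of the list from its average over the 8 libraries) was 0.06, 0.06, 0.04 and 0.21 in rTg4510+3TC F2, F3, M2 and M3, against -0.16, -0.03, 0.07 and -0.25 in rTg4510 F2, F3, M1 and M3. The groups overlapped through rTg4510 M1. Without rTg4510 F3 and rTg4510+3TC F2 the median was 0.20, with 33 of 41 positive, and without rTg4510 M1 as well it was 0.35. The latter fit was chosen after seeing the data and leaves out the untreated library with the highest score, which favours a higher median. Leaving out each library in turn moved it between 0.13 (without rTg4510 M3) and 0.30 (without rTg4510 M1). In females the median was 0.21 and in males 0.20.

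The response element of this pathway was looked for in the 250 bases before the start site, since it is the sequence through which STAT and IRF factors act on these genes. The motif searched was GAAA, any 2 bases and GAAA again, on both strands and with overlaps counted, in promoters from RefSeq (GRCm38.p6), which held 29 of the 41 members. It was found in 11 of these 29 (37.9%), against 369 of the 12048 tested genes with a promoter (3.06%). Counted by promoter, where a gene can have several, it was in 978 of 32851 (2.98%). Log2 fold changes were positive for all 11 (median 0.19) and for 13 of the 18 members without it (median 0.16). A match is a description of these letters and not a bound site. The 3 members with the smallest p that hold the motif are shown, with the matches in capitals: Oas1a (chr5:120907526-120907775, minus strand), Ifit3b (chr19:34607707-34607956, plus strand) and Ifit3 (chr19:34583279-34583528, plus strand).
Oas1a: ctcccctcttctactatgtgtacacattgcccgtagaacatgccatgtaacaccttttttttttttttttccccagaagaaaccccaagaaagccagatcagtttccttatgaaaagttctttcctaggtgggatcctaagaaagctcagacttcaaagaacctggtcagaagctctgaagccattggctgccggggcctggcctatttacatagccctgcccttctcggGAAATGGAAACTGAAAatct
Ifit3b: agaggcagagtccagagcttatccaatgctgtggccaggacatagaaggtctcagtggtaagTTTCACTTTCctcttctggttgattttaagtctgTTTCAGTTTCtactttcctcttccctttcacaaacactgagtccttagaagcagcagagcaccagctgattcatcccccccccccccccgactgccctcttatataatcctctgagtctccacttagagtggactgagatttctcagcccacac
Ifit3: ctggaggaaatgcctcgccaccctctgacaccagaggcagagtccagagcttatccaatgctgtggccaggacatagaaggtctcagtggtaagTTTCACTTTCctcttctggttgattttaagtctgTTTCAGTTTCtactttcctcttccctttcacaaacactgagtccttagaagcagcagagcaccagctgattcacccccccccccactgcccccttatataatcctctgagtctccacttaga
In Oas1a both matches overlap and lie next to the start site, beginning 20 and 14 bases before it. In Ifit3b they begin 188 and 154 bases before the start site and in Ifit3 156 and 122 bases before it, on the opposite strand. Ifit3 and Ifit3b encode near-identical members of a family that binds viral RNA, and reads may have been split between them, so their values are uncertain. Ifit3b had a log2 fold change of 0.61 and Ifit3 of 0.45, with 8.93 CPM of Ifit3 in rTg4510+3TC M3 and 1.77 to 6.06 CPM in the other 7 libraries.

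The sensors upstream of interferon were balanced around 0. Of 22 nucleic acid sensing genes tested, 12 were positive, with a median of 0.01, and 0 had an unadjusted p under 0.05 in either direction. Zbp1, a sensor of left-handed nucleic acid, stood at 0.33, 0.26, 0.74 and 1.98 CPM with 3TC, against 0.14, 0.26, 0.36 and 0.16 CPM without (log2 fold change 1.53 ± 0.68). That value rests largely on the male 3TC libraries, at a level near the floor in several others. Mb21d1, the gene of cGAS, had 0.05 ± 0.33, Tmem173, the gene of STING, -0.19 ± 0.31, and Mavs -0.15 ± 0.23. Ddx58, the gene of RIG-I, had 0.20 ± 0.18. Of the endosomal receptors, Tlr9, which reads DNA, had 0.52 ± 0.31, Tlr7 0.00 and Tlr3 -0.26 ± 0.20.

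Genes that restrict or silence retroelements did not stand apart either. Of 16 restriction genes tested, 9 were positive (median 0.01). An unadjusted p under 0.05 was found for 1, against 2.73% of all genes, and this was Rnaseh2b. It encodes a subunit of RNase H2, which removes RNA from RNA-DNA hybrids. It stood at 6.10, 5.86, 6.31 and 8.20 CPM with 3TC, against 4.37, 3.70, 6.29 and 5.67 CPM without, so rTg4510 M1 lay among the 3TC values (0.42 ± 0.18). The other subunits had 0.10 ± 0.15 (Rnaseh2a) and -0.20 ± 0.11 (Rnaseh2c). Trex1, the exonuclease that degrades cytosolic DNA, had 0.19 ± 0.14, and Samhd1, which depletes nucleotides, 0.03 ± 0.11.

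Of 26 silencing genes tested, 12 were positive (median -0.01) and 1 had an unadjusted p under 0.05, against 2.73% of all genes. This was Hells, a remodeller needed for DNA methylation of repeats, at 3.66, 4.08, 2.88 and 3.84 CPM with 3TC, against 3.01, 2.22, 2.54 and 2.03 CPM without (0.56 ± 0.24). It overlapped through rTg4510+3TC M2. Trim28, the corepressor that KRAB zinc finger proteins recruit to retroelements, had -0.08 ± 0.08, the histone methyltransferase Setdb1 -0.11 ± 0.09, and Dnmt1 0.02 ± 0.08. Intervals of these abundant genes were narrow. Retroelement transcripts themselves are not analysed here.

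Genes that carry, activate or export lamivudine were measured at levels with narrow intervals for the kinases. Of 19 tested, 7 were positive, the median was -0.03, and 0 had an unadjusted p under 0.05. Dck, the deoxycytidine kinase of the first phosphorylation, had -0.03 ± 0.12, and Cmpk1 of the next step -0.11 ± 0.09. The nucleoside diphosphate kinase Nme1 averaged 99.5 ± 6.76 CPM with 3TC and 108 ± 5.75 CPM without (-0.13 ± 0.08). Among transporters, the equilibrative nucleoside transporter Slc29a1 stood at 32.2, 25.2, 20.7 and 23.8 CPM with 3TC, against 21.4, 20.3, 21.8 and 21.7 CPM without. Its female 3TC libraries were the highest, with a log2 fold change of 0.25 ± 0.13. The efflux pumps of the blood-brain barrier had -0.03 ± 0.12 (Abcb1a, P-glycoprotein) and -0.21 ± 0.24 (Abcg2).

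Nucleoside analogues can inhibit the mitochondrial DNA polymerase, so nuclear genes of mitochondrial DNA replication and its nucleotide supply were examined. Of 21 tested, 8 were positive, the median was -0.03 and 0 had an unadjusted p under 0.05. Polg, the polymerase, had -0.12 ± 0.10, its accessory subunit Polg2 -0.42 ± 0.32, and the mitochondrial kinases Tk2 and Dguok 0.03 ± 0.11 and -0.13 ± 0.14. Mpv17, an inner membrane protein needed for the mitochondrial nucleotide pool, stood at 48.6, 45.0, 50.6 and 50.6 CPM with 3TC, against 43.3, 44.6, 44.4 and 43.5 CPM without. Its groups did not overlap (0.15 ± 0.07), nor did those of Suclg1, a subunit of succinyl-CoA ligase (0.14 ± 0.08). These were 2 of the 21, against 2.47% of all genes without overlap, 1.26% with all 3TC libraries above. Sucla2, a partner subunit, had 0.15 ± 0.08 with overlap.

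Microglial genes varied between the libraries of each group. The disease-associated microglia list had 23 of 27 genes positive and a median of 0.16, and 0 had an unadjusted p under 0.05. In bulk tissue, fewer or more cells of a type and less or more RNA per cell cannot be told apart. The list's score was -0.12, 0.29, 0.31 and -0.03 with 3TC, against 0.08, -0.47, 0.07 and -0.14 without. The lowest score was thus that of rTg4510 F3, and without that library the median was 0.05. It was 0.07 without rTg4510+3TC F3, and 0.11, with 22 of 27 positive, without rTg4510 F3 and rTg4510+3TC F2. Spp1, osteopontin, stood at 15.5, 5.28, 3.80 and 4.03 CPM with 3TC, against 1.56, 2.53, 3.01 and 5.36 CPM without (1.12 ± 0.59). Its highest value was in rTg4510+3TC F2, the library with thalamic markers, and the log2 fold change of Spp1 was 0.51 without it. Itgax, an integrin of activated microglia, stood at 0.68, 3.80, 3.83 and 1.54 CPM with 3TC, against 1.35, 0.80, 1.24 and 1.59 CPM without (0.99 ± 0.55). Other members ranged widely, with Cst7 at 1.22, Clec7a at 0.85, Trem2 at 0.26, Apoe at 0.09 and Tyrobp at -0.06.

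For homeostatic microglial genes the median stood at -0.05 (5 of 15 positive), and at 0.08 (12 of 15 positive) without rTg4510 F3 and rTg4510+3TC F2. Tmem119, a marker of resident microglia, stood at 22.6, 24.6, 24.6 and 28.3 CPM with 3TC, against 26.2, 28.7, 28.2 and 29.0 CPM without (-0.17 ± 0.09). Mef2c, a transcription factor that neurons also express, was at 935.5 CPM in rTg4510 F3 and at 65.9 to 246 CPM in the other 7 libraries. Its log2 fold change of -1.10 ± 0.72 was 0.11 without rTg4510 F3 and rTg4510+3TC F2.

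Of 20 complement genes, 11 were positive (median 0.16), and 1 had an unadjusted p under 0.05, against 2.73% of all genes. Itgb2, the shared beta subunit of complement receptors on microglia and leukocytes, stood at 10.8, 12.4, 12.2 and 11.9 CPM with 3TC, against 9.52, 9.16, 9.37 and 7.39 CPM without. The groups did not overlap, as in 2.47% of all genes, and the log2 fold change was 0.42 ± 0.14 (edgeR, adjusted p = 0.995). Serping1, the C1 inhibitor, had 0.38 ± 0.17, and Cfi, which inactivates C3b, 1.64 ± 0.87 at a mean of 1.23 ± 0.82 CPM with 3TC and 0.53 ± 0.55 CPM without. The complement median was 0.02 without rTg4510+3TC F3.

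Antigen presentation and cytokine lists were small in size. Class I genes (9 of 17 positive) had a median of 0.00, and near-identical class I genes may share reads. Class II genes had 0.14, with 7 of 10 positive, and -0.28 without rTg4510+3TC F3. Of 30 genes of Toll-like receptor and NF-kB signalling, 20 were positive (median 0.06). The lipopolysaccharide coreceptor Cd14 alone had an unadjusted p under 0.05 (1 of 30, against 2.73% of all genes). The list's 2 members without overlap were the lipopolysaccharide receptor Tlr4 (-0.83) and the kinase Irak1 (-0.11), both lower with 3TC. Over all genes, 2.47% did not overlap, 1.21% with all 3TC libraries below. The list's median was -0.02 without rTg4510+3TC F3. Of 16 chemokine and cytokine genes, 9 were positive (median 0.04; -0.06 without rTg4510+3TC F3) and 0 had an unadjusted p under 0.05. Cxcl5 stood at 0.25 ± 0.14 CPM with 3TC and 0.81 ± 0.64 CPM without (-1.52 ± 0.69), and Ccl3, a microglial chemokine, at 1.40 ± 0.73 and 0.60 ± 0.40 CPM (1.23 ± 0.77). Il34, a ligand of the microglial survival receptor, had -0.27 ± 0.17.

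Astrocyte genes also stood mostly on the positive side. The reactive astrocyte list had 22 of 25 genes positive and a median of 0.31. Of its members, 2 had an unadjusted p under 0.05, Ggta1 and Cd14, against 2.73% of all genes. Its scores by library overlapped, at -0.19 to 0.34 with 3TC and -0.48 to 0.06 without. Ggta1, a galactosyltransferase of the reactive set, stood at 4.58, 6.83, 8.04 and 6.41 CPM with 3TC, against 4.61, 4.04, 3.84 and 4.68 CPM without. The 3TC libraries other than F2 were above all untreated ones (0.58 ± 0.21). Cd14 stood at 2.53, 4.97, 3.96 and 4.98 CPM with 3TC, against 2.07, 1.65, 3.01 and 3.55 CPM without (0.73 ± 0.29). Cp, ceruloplasmin, had 0.35 ± 0.17. Gfap, the intermediate filament used to define reactive astrocytes, lay between 523 and 1276 CPM among the 3TC libraries and between 213 and 1241 CPM among the untreated ones, with 213 CPM in rTg4510 F3. The list's median was 0.24 without rTg4510 F3 and rTg4510+3TC F2, and 0.10 without rTg4510+3TC F3.

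Of 20 genes of astrocyte identity, 17 were positive (median 0.14), and 2 had an unadjusted p under 0.05, against 2.73% of all genes. Kcnj10, the Kir4.1 channel that buffers potassium, stood at 720, 415, 466 and 357 CPM with 3TC, against 350, 333, 376 and 308 CPM without (0.50 ± 0.19). The highest value was that of rTg4510+3TC F2, and the log2 fold change of Kcnj10 was 0.27 without it. Sox9, the nuclear marker of astrocytes, stood at 68.1, 86.7, 82.2 and 80.0 CPM with 3TC, against 76.5, 55.8, 65.3 and 60.8 CPM without (0.30 ± 0.12). Aqp4, the water channel of endfeet, had 0.22 ± 0.11. Without rTg4510 F3 and rTg4510+3TC F2 the median was 0.06, with 17 of 20 positive.

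Stress and lipid lists differed among themselves. Of 19 heat shock genes, 17 were positive (median 0.16, and 0.13 without rTg4510 F3 and rTg4510+3TC F2). An unadjusted p under 0.05 was found for 1, against 2.73% of all genes. Cryab, a small heat shock protein of glia, stood at 109, 116, 126 and 112 CPM with 3TC, against 98.8, 93.3, 114 and 99.5 CPM without (0.19 ± 0.08). Stip1 and Ahsa1, cochaperones of HSP90, had 0.34 ± 0.15 and 0.16 ± 0.08. Of 23 genes of lipid droplets and sterol efflux, 11 were positive (median -0.02). Beside Plin2, Nr1h3, the sterol sensor LXR alpha, had an unadjusted p under 0.05 (2 of 23, against 2.73% of all genes). Nr1h3 stood at 5.56, 3.88, 5.50 and 5.13 CPM with 3TC, against 4.27, 3.10, 3.25 and 3.46 CPM without (0.51 ± 0.22). Cyp46a1, the neuronal cholesterol hydroxylase, had -0.30 ± 0.16. Medians were 0.01 for cholesterol synthesis (12 of 23 positive), 0.09 for targets of NRF2 and iron genes (16 of 22), 0.07 for the unfolded protein response (18 of 25), 0.04 for lysosomal genes (22 of 34) and 0.00 for p53 targets (12 of 24).

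Synaptic and immediate early genes lay on the negative side with all 8 libraries and on the positive side without the 2 that carry thalamic, striatal and neocortical markers. Synaptic genes had a median of -0.06 (7 of 33 positive) with all libraries and 0.04 (23 of 33) without rTg4510 F3 and rTg4510+3TC F2. Immediate early genes, which report recent neuronal activity, had -0.12 (6 of 24) and 0.18 (21 of 24). Circadian clock genes had -0.12 (6 of 19) and -0.06 (8 of 19). Without rTg4510 M1 as well, the median of synaptic genes was -0.00064 (16 of 33). In that fit it was 0.23 (19 of 24) for immediate early genes and -0.16 (5 of 19) for clock genes. Of 12 dentate granule markers, 4 were positive, with a median of -0.05. The dentate median was -0.14 without rTg4510 F3 and rTg4510+3TC F2. It lay between -0.20 without rTg4510+3TC M3 and 0.20 without rTg4510 F2. Of the 12 markers, 2 had an unadjusted p under 0.05, Pdzd2 (-0.34 ± 0.12) and Plk5 (-0.69 ± 0.27), against 2.73% of all genes. Plk5 stood at 23.1, 16.7, 9.93 and 21.2 CPM with 3TC, against 24.4, 39.9, 30.9 and 19.3 CPM without, so the groups overlapped. Calb1, calbindin, had -0.29 ± 0.15. The 4 positive markers were Tdo2 (0.36), Prox1 (0.32 ± 0.45), Npnt (0.15) and C1ql2 (0.15). Prox1, which defines these neurons, was lowest in rTg4510 F3, at 9.51 CPM.

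All 18 myelin genes tested were positive, the median was 0.29, and 0 had an unadjusted p under 0.05. Ermn, a cytoskeletal protein of myelin, stood at 91.5, 63.7, 72.9 and 84.6 CPM with 3TC, against 67.0, 29.7, 66.0 and 61.0 CPM without (0.50 ± 0.24), with rTg4510 F3 far below the others; the log2 fold change of Ermn was 0.27 without it. Ugt8a and Gjc3, an enzyme and a connexin of oligodendrocytes, had 0.37 ± 0.19 and 0.33 ± 0.19. Without rTg4510 F3 the myelin median was 0.07, and without rTg4510+3TC F2 as well it was 0.01.

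Lists for neighbouring tissue showed the same dependence on single libraries. The thalamic median of 0.74 (11 of 11 positive) was -0.08 without rTg4510+3TC F2. The neocortical median of -0.45 (3 of 12) was 0.11 without rTg4510 F3, and the choroid plexus median of -1.14 (1 of 15) was 0.71 without rTg4510 M1. The striatal median of -0.23 (3 of 12) was -0.01 without rTg4510 F3. Among other cells of the tissue, medians were 0.02 for endothelial cells and pericytes (10 of 20 positive), -0.30 for meningeal fibroblasts (4 of 16), 0.37 for border macrophages and blood immune cells (6 of 8) and 0.02 for ependymal cells (5 of 10). For hippocampal cells they were 0.13 for CA pyramidal neurons (10 of 14; -0.01 without rTg4510 F3 and rTg4510+3TC F2), 0.14 for oligodendrocyte precursors (10 of 15; -0.05 without the same libraries), -0.02 for interneurons (8 of 17) and 0.02 for newborn neurons (7 of 13). Activity-related neuropeptides had a median of -0.06 (7 of 18), and 0.09 (13 of 18) without rTg4510 F3 and rTg4510+3TC F2. Without the same libraries the median was 0.08 for interneurons (11 of 17) and -0.07 for newborn neurons (5 of 13). Whether these markers account for part of the glial values was not tested.

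**Figure D3:**
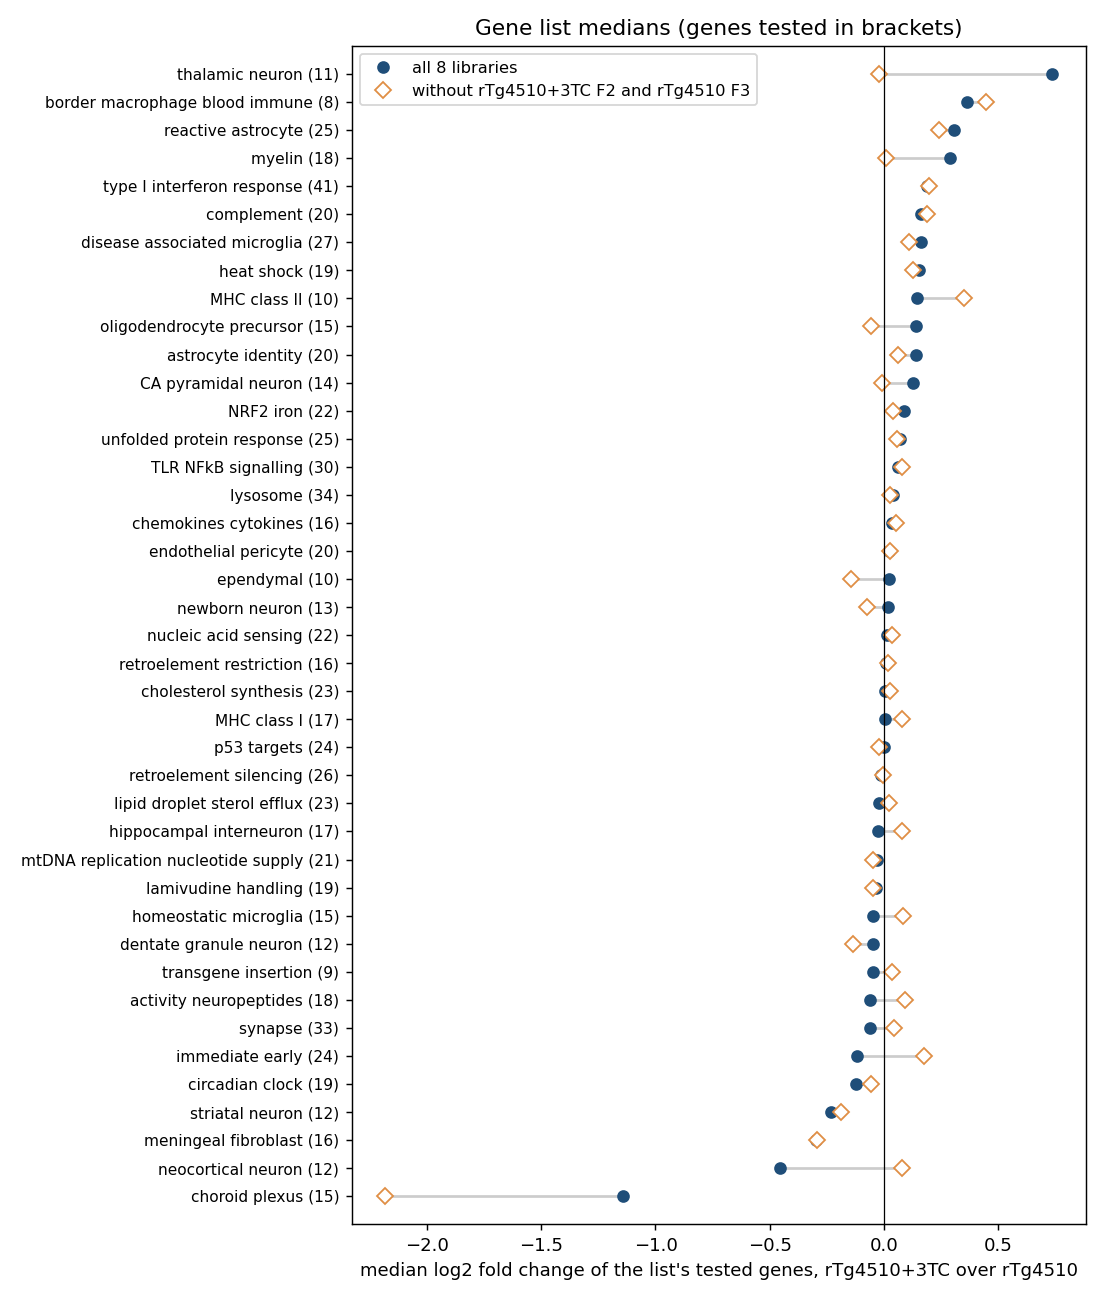
Median log2 fold change, rTg4510+3TC over rTg4510, of the tested genes of each list (horizontal axis), with all 8 libraries (filled circles) and without rTg4510+3TC F2 and rTg4510 F3 (open diamonds); the number of genes is in brackets. The myelin, thalamic and neocortical medians move close to 0 without these libraries, while the interferon median is 0.19 and 0.20.

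**Figure D4:**
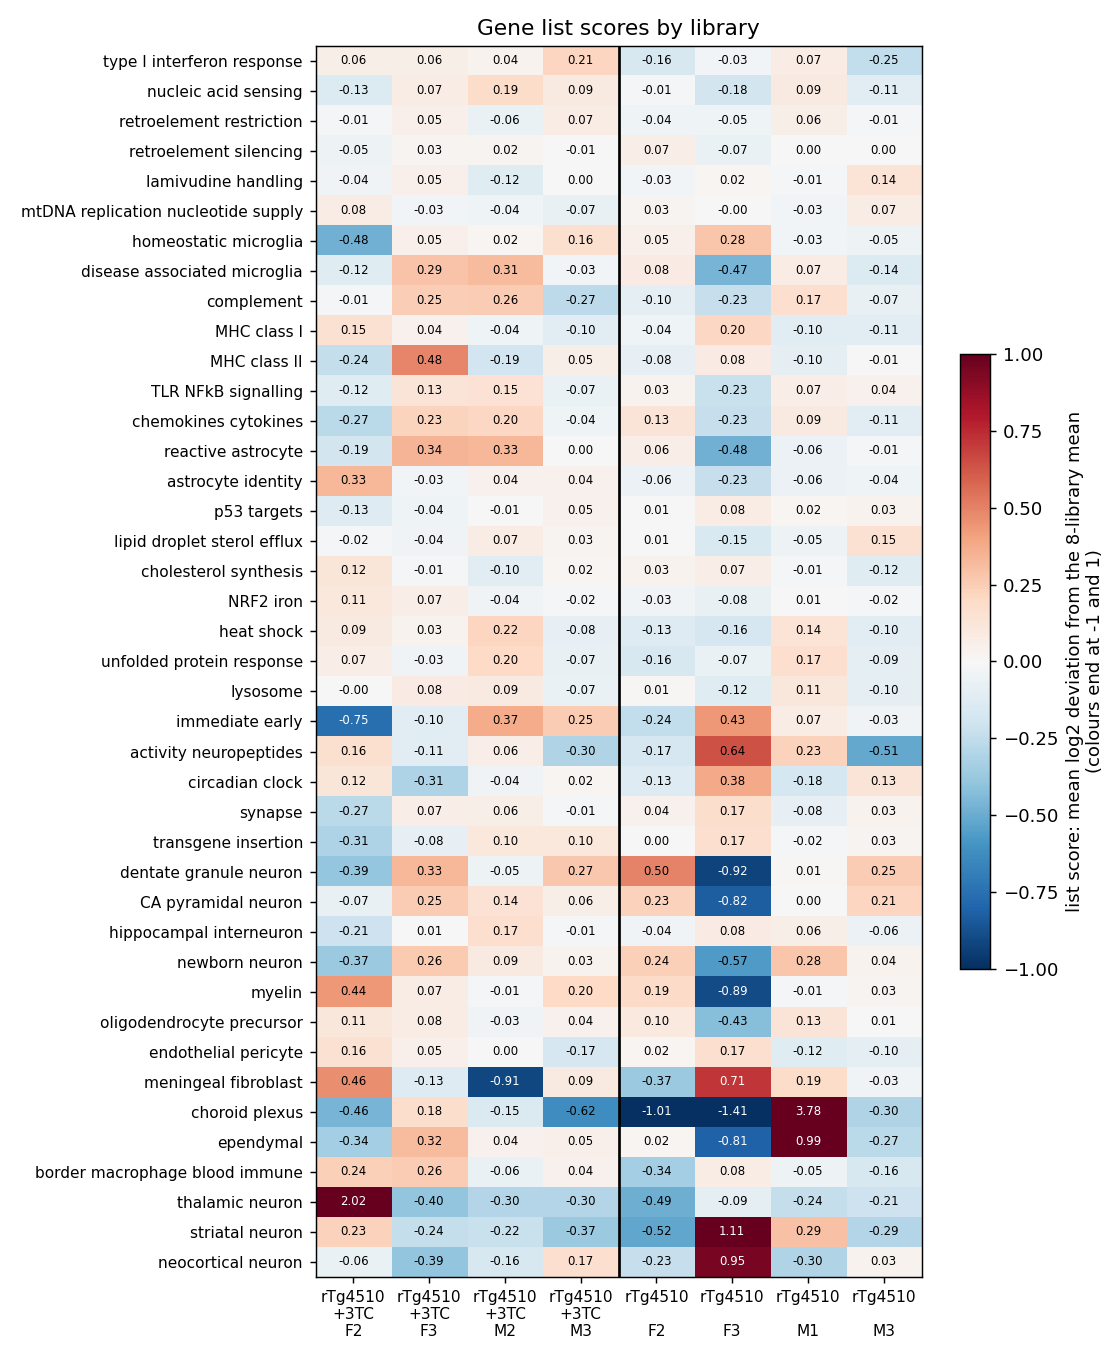
List scores by library, the mean log2 deviation of a list's genes from their average over the 8 libraries, with the 4 rTg4510+3TC libraries left of the line and the 4 rTg4510 libraries right of it; colours end at -1 and 1 and the values are printed. The thalamic score is 2.02 in rTg4510+3TC F2, the myelin score -0.89 in rTg4510 F3 and the choroid plexus score 3.78 in rTg4510 M1.

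The 3TC comparison was also made within each sex, with 2 libraries against 2. No gene was called in females (edgeR; 0%, with 804 genes or 5.01% at an unadjusted p under 0.05, smallest adjusted p = 0.866). In males the count was also 0 (0%), with 245 genes or 1.53% at an unadjusted p under 0.05. The difference between the sexes, tested as an interaction, was called for 0 genes (0%), with 463 or 2.89% at an unadjusted p under 0.05. Counts within a sex turned on single libraries: leaving out rTg4510 F2, so that rTg4510 F3 alone stood for untreated females, gave 186 calls (Ngef, C1ql2 and St18 with the smallest adjusted p), and leaving out rTg4510+3TC F3 gave 19 (among them Tcf7l2, Slc6a11, Itih3, Ebf3 and Slc17a6). In males, Enpp2 had a log2 fold change of -3.28 without rTg4510 M3, so that rTg4510 M1 alone stood for untreated males. Enpp2 is on the choroid plexus list and stood at 2313 CPM in rTg4510 M1, against 218 to 250 CPM in the others.

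DESeq2 called 6 genes in females, among them Slc6a3, Gata3 and Pou4f1, higher with 3TC, and Rprm and Col6a1, lower. Slc6a3, the dopamine transporter, had 318 and 17 counts in female 3TC libraries F2 and F3, against 0 and 0 in untreated F2 and F3. Gata3 and Pou4f1, transcription factors of midbrain and habenula neurons, had 780 and 631 counts in rTg4510+3TC F2 and 55 and 22 in rTg4510+3TC F3, against 5 to 17 in untreated females. All these high counts were those of the library with thalamic markers, whose part in the result was not tested. Col6a1, a collagen chain, had 906 and 1093 counts in female 3TC libraries, against 1638 and 2549 in untreated females (DESeq2 log2 fold change -1.14, adjusted p = 0.0275).

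The 20 leading genes had the same sign in both sexes. The log2 fold change of Pard3 was 0.77 ± 0.17 in females and 0.44 ± 0.17 in males, and that of Plin2 was 0.77 ± 0.23 and 0.43 ± 0.23. Fzd2 had -0.45 ± 0.21 in females and -1.04 ± 0.22 in males. Rprm was at -1.35 ± 0.29 in females and -0.38 ± 0.28 in males (edgeR, adjusted p = 0.9996 for the difference).

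Genes with the smallest p for the difference of the sexes had opposite signs, and none passed (edgeR, adjusted p = 0.9996 for each). Cacng5, a regulatory subunit of AMPA receptors, had a log2 fold change of 1.07 in females and -0.91 in males. Nr3c1, the glucocorticoid receptor, stood at 67.9 and 78.3 CPM in females with 3TC against 97.2 and 113 CPM in females without (-0.52), and at 92.6 and 97.7 CPM in males with 3TC against 79.3 and 79.3 CPM in males without (0.26). The pairs did not overlap in either sex. Cd34, of vessels and progenitors, had -1.04 in females and 0.38 in males, and Ptpn18, a cytosolic phosphatase, 0.63 and -1.75. Zic1, a transcription factor of thalamic, septal and meningeal cells, had 2.04 and -1.67, and its high values were in rTg4510+3TC F2 (82.6 CPM), rTg4510+3TC F3 (52.4 CPM) and rTg4510 M1 (73.2 CPM), against 12.2 to 18.2 CPM in the other 5.

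**Figure D5:**
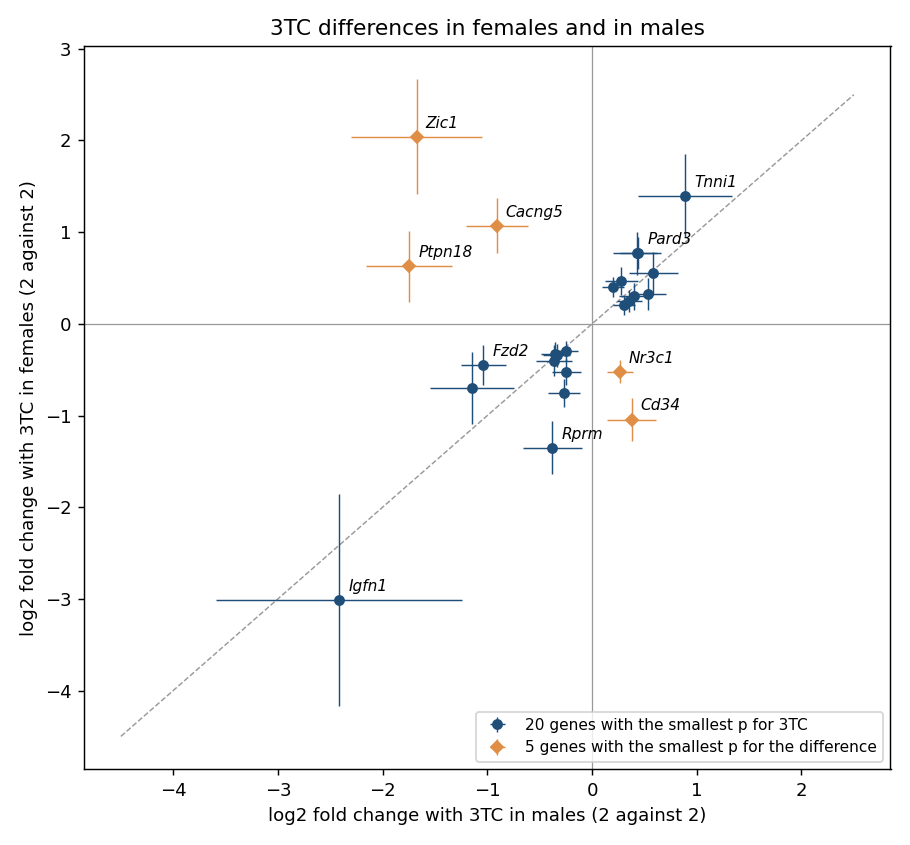
Log2 fold change of rTg4510+3TC over rTg4510 in females (vertical axis) against that in males (horizontal axis), each from 2 libraries against 2, for the 20 genes with the smallest p (circles) and the 5 with the smallest p for the difference of the sexes (diamonds); bars are standard errors and the dashed line marks equal values. The 20 genes lie in the quadrants of equal sign, and the 5 lie in those of opposite sign.

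Genes tied to the transgene were compared last, since both groups carry it. Prnp, whose mouse sequence is part of the vector of this line, averaged 2409 ± 631 CPM with 3TC and 2418 ± 200 CPM without (SD, n = 4 each), with 1537 CPM in rTg4510+3TC F2 and 2246 to 3017 CPM in the other 7 libraries. Its log2 fold change was -0.02 ± 0.18, and 0.13 without rTg4510 F3 and rTg4510+3TC F2. Mapt, the mouse tau gene, averaged 662 ± 13.2 CPM with 3TC and 646 ± 21.5 CPM without (0.04 ± 0.07). The other 7 transgene and insertion-site genes had log2 fold changes of -0.38 to -0.01, and none passed. The median of all 9 was -0.05 (1 of 9 positive), and 0.04 (6 of 9) without rTg4510 F3 and rTg4510+3TC F2. Camk2a stood at 2456 CPM in rTg4510+3TC F2, against 4660 to 5718 CPM in the other libraries. Reads of the human tau transgene were not analysed here.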

How the data were processed

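Hippocampal RNA was purified with Trizol and spin columns and entered TruSeq polyA libraries, per the labels' protocols. The authors deposited a table of raw counts for each gene symbol. Among tools and builds, STAR, DESeq2 and mm10 appear in the submitters' processing notes. How strand was treated and which annotation was used is not given in the sources used here; overlapping or near-identical genes may therefore share reads.

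Of 24411 entries, 27 carry dates in place of symbols (0.285% to 0.363% of counts per library) and were left out. Counts of the 8 libraries were filtered (filterByExpr by group, minimum count 10, minimum total 15), TMM scaled and fitted in edgeR 4.0.16 (R 4.3.3) with labelled sex and group as terms, leaving 5 residual degrees of freedom. A gene was called when its quasi-likelihood p, adjusted by Benjamini-Hochberg, was under 0.05. Effects by sex were contrasts of the 4 group and sex cells. Positions are from GENCODE M21 (mm10) and matched 15430 tested genes. The procedure was tested on simulated counts.

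The comparison, the 41 gene lists and the rules were chosen with earlier results of these data known. Named are, among genes with a mean of at least 1 CPM, the 10 with the smallest p in each direction, leaving out predicted and small RNA genes. Also named are for each described list the 3 tested members of smallest p, genes called by another tool (up to 5 each), the 5 with the smallest p for the sex difference and transgene genes; some genes that these rules name are not reported here. Other list members, such as Herc6, Gfap and the pathway genes around 0, were added for their roles or after their values were seen. Of the transgene genes, Prnp and Mapt were followed through the alternatives. A list score adds 0.5 CPM before log2. Libraries of a group differed by more than sampling noise (chi-square per gene of 16.7 or more). Alternatives were DESeq2 size factors, no filter, 1 CPM in 4 libraries, DESeq2 1.42.0, limma-voom 3.58.1 with and without quality weights, a fit lacking sex, a block on the replicate code, 12 libraries, leaving out each library, and leaving out the libraries with tissue markers.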

Additional observations from a re-analysis of the deposited data

Results flagged for a closer look

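In groups of 4 libraries, a value was picked out when its gap to the nearest other exceeded Dixon's 95% critical share of the range. This held for 15 of 232 groups, where chance gives about 1 in 20. Their part in the results was not tested beyond the fits without single libraries.

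In rTg4510+3TC F2, the library with thalamic markers, the thalamic score was 2.02 (-0.398 to -0.296 in the other 3), Rprm was at 16.5 CPM (29.9 to 30.6) and Spp1 at 15.5 CPM (3.80 to 5.28). In rTg4510+3TC F3, Nme1 was at 109.5 CPM (94.7 to 97.0 in the other 3). In rTg4510+3TC M3 the interferon score was 0.212 (0.0359 to 0.0606).

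In rTg4510 F3, the library with low myelin and high striatal markers, Mef2c was at 935.5 CPM (146 to 184 in the other 3) and Cyp46a1 at 332 CPM (194 to 216). Ermn was at 29.7 CPM (61.0 to 67.0), Gjc3 at 29.0 CPM (50.8 to 52.5), the Toll-like receptor score at -0.225 (0.0323 to 0.0652) and the astrocyte identity score at -0.232 (-0.0618 to -0.0392). In rTg4510 M1, the library high in Ttr, Zic1 was at 73.2 CPM (14.5 to 18.2) and Stip1 at 254.5 CPM (186 to 196). Tnni1 was at 0.813 CPM in rTg4510 F2 (1.31 to 1.34), and Itgb2 at 7.39 CPM in rTg4510 M3 (9.16 to 9.52).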

How the results depend on the processing

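The count of called genes was 0 in 19 of the 20 alternative fits of the main comparison and 1 (Ptprv) with the DESeq2 Wald test. Genes higher with 3TC at an unadjusted p under 0.05 numbered 318 with DESeq2 and 314 with quality weights, against 204; leaving out 1 library gave 131 (without rTg4510+3TC M2) to 329 (without rTg4510 M1), and leaving out rTg4510 F3, rTg4510 M1 and rTg4510+3TC F2, a fit chosen after seeing the data, gave 373. Genes lower with 3TC numbered 131 (without rTg4510 F3) to 314 (without rTg4510 F2), against 234. Fewer libraries leave more genes without overlap by construction: 723 to 1076 with 1 left out, 1344 without rTg4510 F3 and rTg4510+3TC F2 and 3225 without rTg4510 M1 as well, against 396.

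Called genes in females numbered 6 with DESeq2 and 0 to 186 with 1 library left out (186 without rTg4510 F2, 19 without rTg4510+3TC F3), against 0; these fits compare 1 library with 2 and assume that it varies like the others. In males the range was 0 to 1 (1 without rTg4510 M3), and for the difference of the sexes 0 to 10 (10 without rTg4510 F2). The cause was not tested.

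Of 69 named genes tested in the main fit, 3 turned sign under an alternative of the main comparison and none passed the threshold. Ptprv, which the main fit did not test, is not among the 69 and passed with DESeq2. Mef2c was at 0.11 without rTg4510 F3 and rTg4510+3TC F2 and 0.059 without rTg4510 M1 as well, where Il34 was at 0.0023. Prnp was at 0.054 with quality weights, -0.14 to 0.16 with 1 library left out, and 0.13 and 0.15 in the fits without 2 and 3 libraries. Medians of 10 of the 41 lists moved by more than the spread between libraries in at least 1 alternative.

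With the replicate code as a block, 0 genes were called and 458 had an unadjusted p under 0.05. Deviations of same-numbered libraries had correlations of -0.12, -0.15 and 0.12, and those of other pairs lay between -0.18 and 0.22. With so few pairs, and libraries that differ in tissue markers, this cannot show whether the numbers pair them. Depth limits mainly genes near 1 CPM.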

Other observations

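Levels of 6 genes, chosen after their values were seen, in the 4 littermate controls were read beside both transgenic groups, scaled over all 12 libraries, as values with no test. Pard3 averaged 35.3 ± 4.78 CPM in rTg4510+3TC and 23.3 ± 2.45 CPM in rTg4510, with 33.2 ± 4.55 CPM in littermates (SD, n = 4 each). Rprm averaged 26.9 CPM in rTg4510+3TC and 49.7 CPM in rTg4510, with 34.2 CPM in littermates, and Ccdc62 1.96 and 3.71 CPM, with 2.54 CPM. Plin2 averaged 8.24 CPM in rTg4510+3TC and 5.47 CPM in rTg4510, with 6.03 CPM in littermates, and Hdac7 30.7 and 38.9 CPM, with 41.4 CPM. For Pard3, Rprm, Ccdc62 and Plin2 the littermate mean lay between those of the transgenic groups. Their choice by a small p between these groups favours such a place, so no return to littermate levels can be read from it. For Hdac7 the littermate mean lay above both. Itgb2 averaged 11.8 ± 0.74 CPM in rTg4510+3TC and 8.86 ± 0.99 CPM in rTg4510, with 5.06 ± 0.80 CPM in littermates, so the 3TC mean lay farther from the littermate mean than the untreated one.

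Of the genes described, Ptprv (chr1:135108497-135132594, mm10), Tnni1 (chr1:135779434-135810989) and Igfn1 (chr1:135953578-136006342) lie within 898 kb of each other, a pattern noticed after their values were seen. The span was drawn from Ptprv to Igfn1, so it holds these genes by construction. Tnni1 and Igfn1 were the 2 of 14 tested genes in it with an unadjusted p under 0.05, against 2.73% of all genes. The other 12 had log2 fold changes between -0.09 and 0.29. Ptprv had 0 counts in each rTg4510+3TC library, 6 to 65 in rTg4510 and 10 to 41 in littermates. Igfn1 had 31 to 168, 107 to 1476 and 219 to 1101 counts in the same order. Tnni1 had 71 to 100, 24 to 46 and 47 to 133 counts.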
